A study of Mus musculus with 19 samples.

Results

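The 7 genes described here encode enzymes that make, use up or divert glyoxylate, the immediate precursor of oxalate: Hao1, Hao2, Prodh2, Hoga1, Agxt, Grhpr and Agxt2. They were taken by gene symbol, 1 row each, from a table of 55421 genes counted in mouse liver RNA. RNA came from livers of adult male C57BL/6 mice in which, per the series title, an AP-1 dimer of c-Jun and Fra2 drives liver cancer. In mutants the transgene was switched on at weaning, 3 weeks of age, by taking away doxycycline. The promoter that drives the transgene is not given in the sources used here. There were 3 mutant livers taken 2 months after induction and 6 control livers of the same time. At 9 months, 3 mutants gave 4 visible tumours (a pair of them from mutant 1) and 3 pieces of tissue with no tumour visible to the eye, and 3 further mice served as controls. Controls of both times were littermates that had doxycycline removed in the same way. The labels call the non-mutant and 2-month tissue mostly hepatocyte, and both mutant tissues at 9 months mostly transformed hepatocyte. Each time was sequenced in its own run, so the effects of time and of run cannot be told apart, while mutants and controls of 1 time share a run.

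Glyoxylate arises in hepatocytes by more than one route. In peroxisomes HAO1, glycolate oxidase, makes it from glycolate, and in mitochondria the breakdown of hydroxyproline, opened by PRODH2 (hydroxyproline dehydrogenase) and closed by HOGA1 (4-hydroxy-2-oxoglutarate aldolase), releases it together with pyruvate. AGXT turns glyoxylate into glycine with alanine as amino donor, GRHPR reduces it to glycolate, and what escapes both can be oxidised to oxalate by lactate dehydrogenase. In people, inherited loss of AGXT, GRHPR or HOGA1 causes primary hyperoxaluria, with oxalate stones in the kidney. HAO2 is a second peroxisomal 2-hydroxy acid oxidase that prefers longer substrates, and AGXT2 is a mitochondrial aminotransferase that also handles beta-aminoisobutyrate and dimethylarginines.

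The promoters of 4 genes are shown because these genes span the range of behaviour: Hao1 and Prodh2 had the lowest mutant levels relative to control at 2 months, Agxt2 stood between, and Hoga1 was the 1 gene that was higher. Each is a 300-base RefSeq window of build GRCm38.p6, 250 bases before to 50 after the annotated start, on the strand of the gene. Hao1 lies at chr2:134554303-134554602 on the minus strand, Prodh2 at chr7:30493408-30493707, Agxt2 at chr15:10358283-10358582 and Hoga1 at chr19:42045620-42045919, these 3 on the plus strand. Capitals mark a match to the C/EBP letters TTGCNNAA on either strand (Hao1 and Prodh2) or to the HNF4 letters CAAAGTCCA (Agxt2).
Hao1: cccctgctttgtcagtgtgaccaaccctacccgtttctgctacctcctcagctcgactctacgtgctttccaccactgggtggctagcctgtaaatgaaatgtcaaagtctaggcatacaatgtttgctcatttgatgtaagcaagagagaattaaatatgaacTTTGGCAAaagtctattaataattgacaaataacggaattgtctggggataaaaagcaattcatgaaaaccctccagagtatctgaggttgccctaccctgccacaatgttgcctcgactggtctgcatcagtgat
Prodh2: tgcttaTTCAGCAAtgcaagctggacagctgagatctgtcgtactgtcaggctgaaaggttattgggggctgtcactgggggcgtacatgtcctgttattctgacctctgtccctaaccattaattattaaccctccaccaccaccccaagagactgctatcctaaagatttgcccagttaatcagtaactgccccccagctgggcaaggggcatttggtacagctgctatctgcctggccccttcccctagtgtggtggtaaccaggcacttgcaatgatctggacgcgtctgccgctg
Agxt2: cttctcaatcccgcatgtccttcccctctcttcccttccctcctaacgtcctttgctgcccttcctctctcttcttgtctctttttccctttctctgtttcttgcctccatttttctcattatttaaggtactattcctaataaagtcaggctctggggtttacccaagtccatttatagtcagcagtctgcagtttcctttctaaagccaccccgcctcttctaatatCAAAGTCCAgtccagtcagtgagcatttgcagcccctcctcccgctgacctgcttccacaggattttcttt
Hoga1: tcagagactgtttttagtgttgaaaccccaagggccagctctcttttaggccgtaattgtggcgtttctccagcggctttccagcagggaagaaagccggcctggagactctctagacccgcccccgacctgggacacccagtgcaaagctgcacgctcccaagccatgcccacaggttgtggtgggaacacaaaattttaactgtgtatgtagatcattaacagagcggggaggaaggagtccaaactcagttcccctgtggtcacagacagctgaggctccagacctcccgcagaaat
All 7 genes were found in the RefSeq table, Agxt2 with a pair of overlapping windows, which makes 8 windows. None of the 8 held the AP-1 letters TGACTCA or TGAGTCA, the CRE letters TGACGTCA or the E-box CACGTG. Among 32851 promoter windows of the same length, searched on both strands, 5.2% held the AP-1 letters, 1.79% the CRE letters and 7.15% the E-box. The HNF4 letters, present in both Agxt2 windows, occurred in 0.47% of all windows, and the C/EBP letters, present in Hao1, Prodh2 and the second Agxt2 window, in 10.8%. The windows also differed in base composition: Hao2 had 32.3% G and C with 2 CpG pairs and Grhpr 60.3% with 14, against a median of 52.7% and 7 over all windows. A match is a run of letters and no record of binding, and a missing match says only that these letters are not in this window.

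Order among the 7 genes differed between mutant tissue and control liver. Levels were compared between genes as RPKM, the CPM (counts scaled to a common depth by TMM) divided by kilobases of exon. In 2-month mutants the order was Agxt at 125.9 ± 34.2, Hoga1 at 122.6 ± 9.44, Grhpr at 32.9 ± 8.38, Agxt2 at 28.5 ± 10.5, Prodh2 at 4.54 ± 2.94, Hao1 at 0.299 ± 0.0138 and Hao2 at 0.0171 ± 0.0152 RPKM (SD, n = 3). Agxt and Hoga1 lay within their spread of each other, as did Grhpr and Agxt2. In 2-month controls it was Agxt at 219.0 ± 42.7, Grhpr at 166.4 ± 25.7, Hao1 at 165.6 ± 14.8, Prodh2 at 98.7 ± 10.2, Hoga1 at 88.5 ± 9.85, Agxt2 at 77.9 ± 10.3 and Hao2 at 0.0584 ± 0.0504 RPKM (SD, n = 6). Grhpr and Hao1 lay within their spread of each other there, as did Hoga1 and its neighbours in the order. These spreads are between animals. Within each of these control libraries Hoga1 was above Agxt2, and Prodh2 was above Hoga1 in each but control 1. The order was not tested. Tumours had Hoga1 first, at 64.9 ± 4.40 RPKM, followed by Grhpr at 48.7 ± 5.25, Agxt2 at 23.9 ± 10.8, Agxt at 22.5 ± 13.0, Hao1 at 4.38 ± 6.76, Prodh2 at 2.26 ± 2.03 and Hao2 at 0.242 ± 0.185 (SD, n = 3 animals). Tumour-free tissue kept Agxt first, at 95.8 ± 10.6 RPKM, with Hoga1 at 89.8 ± 10.1 next to it and within its spread (SD, n = 3). The 9-month controls had the order of the 2-month controls, from Agxt at 147.4 ± 11.2 to Agxt2 at 79.5 ± 5.96 and Hao2 at 4.19 ± 2.01 RPKM (SD, n = 3). By group mean Hoga1 thus had rank 1 among the 7 genes in tumours and rank 5 in control liver. Hao1 had rank 6 in 2-month mutants and rank 3 in control liver. In tumour 1 of mutant 1, Grhpr at 62.3 RPKM and Agxt2 at 54.5 lay above Hoga1 at 53.9.

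Total counts per library were 15676749 to 18826201 in 2-month mutants and 14294611 to 17448730 in 2-month controls, 19498755 to 21587928 in tumours, 18977477 to 22062341 in tumour-free tissue and 19869241 to 20879281 in 9-month controls. Fosl2, which encodes Fra2, was measured at 640 to 886 CPM in 2-month mutants, against 8.37 to 19.2 CPM in their controls, and at 590 to 716 CPM in tumours (per animal) and 788 to 936 CPM in tumour-free tissue, against 9.36 to 19.8 CPM in 9-month controls. Jun was 533 to 683 CPM in 2-month mutants and 10.5 to 25.8 CPM in their controls. It was 413 to 581 CPM in tumours and 437 to 785 CPM in tumour-free tissue, while the 9-month controls had 22.9, 40.4 and 387 CPM, so that 1 control library stood near the mutants for Jun but not for Fosl2. All 12 hepatocyte markers examined were present in every group. Their summed raw counts were 8.26 to 9.43% of all counts in 2-month mutants against 13.4 to 15.3% in 2-month controls, and 9.65 to 13.2% in tumours and 8.35 to 9.44% in tumour-free tissue against 12.6 to 13.1% in 9-month controls, so that tumours and 9-month controls overlapped. Alb, the albumin gene, was the largest part, at 26699 to 36065 CPM in 2-month mutants and 86134 to 106250 CPM in 2-month controls. Not all markers were lower: Apob was 9288 to 11215 CPM in 2-month mutants and 3862 to 4997 CPM in 2-month controls. The 8 macrophage markers summed to 620 to 979 CPM in 2-month mutants and 341 to 681 CPM in 2-month controls. They summed to 355 to 625 CPM in tumours and 562 to 625 CPM in tumour-free tissue, against 278 to 355 CPM in 9-month controls. The markers did not move alike: Ptprc, Adgre1, Csf1r, Cd68 and Lyz2 lay above 9-month controls in all tumours. Clec4f, Cd5l and Vsig4 reached down to 2.23, 1.88 and 0.691 CPM in tumours, below all 9-month controls. The 7 stellate cell and fibroblast markers summed to 434 to 719 CPM in 2-month mutants and 235 to 376 CPM in 2-month controls. They summed to 437 to 776 CPM in tumours and 458 to 667 CPM in tumour-free tissue, against 248 to 372 CPM in 9-month controls. In tumours Col1a1, Col3a1 and Pdgfrb lay above all 9-month controls, and Des overlapped with them. Dcn, Lrat and Reln reached down to 87.6, 4.45 and 23.3 CPM in tumours, below all 9-month controls. The 5 cholangiocyte markers summed to 126 to 565 CPM in 2-month mutants and 49.3 to 100.3 CPM in 2-month controls, without overlap. They summed to 62.9 to 3043 CPM in tumours and 71.1 to 207 CPM in tumour-free tissue, against 55.0 to 122 CPM in 9-month controls. Most of these sums was Spp1, at 113 to 522 CPM in 2-month mutants and 49.9 to 2996 CPM in tumours. At 2 months Krt19, Krt7 and Sox9 overlapped between mutants and controls, and Epcam did not. In tumours Krt19 and Krt7 reached below all controls, while Sox9 lay above them. Several of these lists move with the mutant groups, and their part in the results below was not tested. Lower RNA per hepatocyte and fewer hepatocytes cannot be told apart in such bulk tissue.

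The 7 genes were chosen by their pathway with the measured mutant against control changes of these data known, Hao1 and Prodh2 among the largest. Mutant against control values are therefore a description with no test, and the counts of genes past the threshold (edgeR quasi-likelihood test over all genes, adjusted p under 0.05) stand beside the share of all tested genes past it. For other contrasts the adjusted p over all genes is given, and it is no independent support either.

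**Figure D1:**
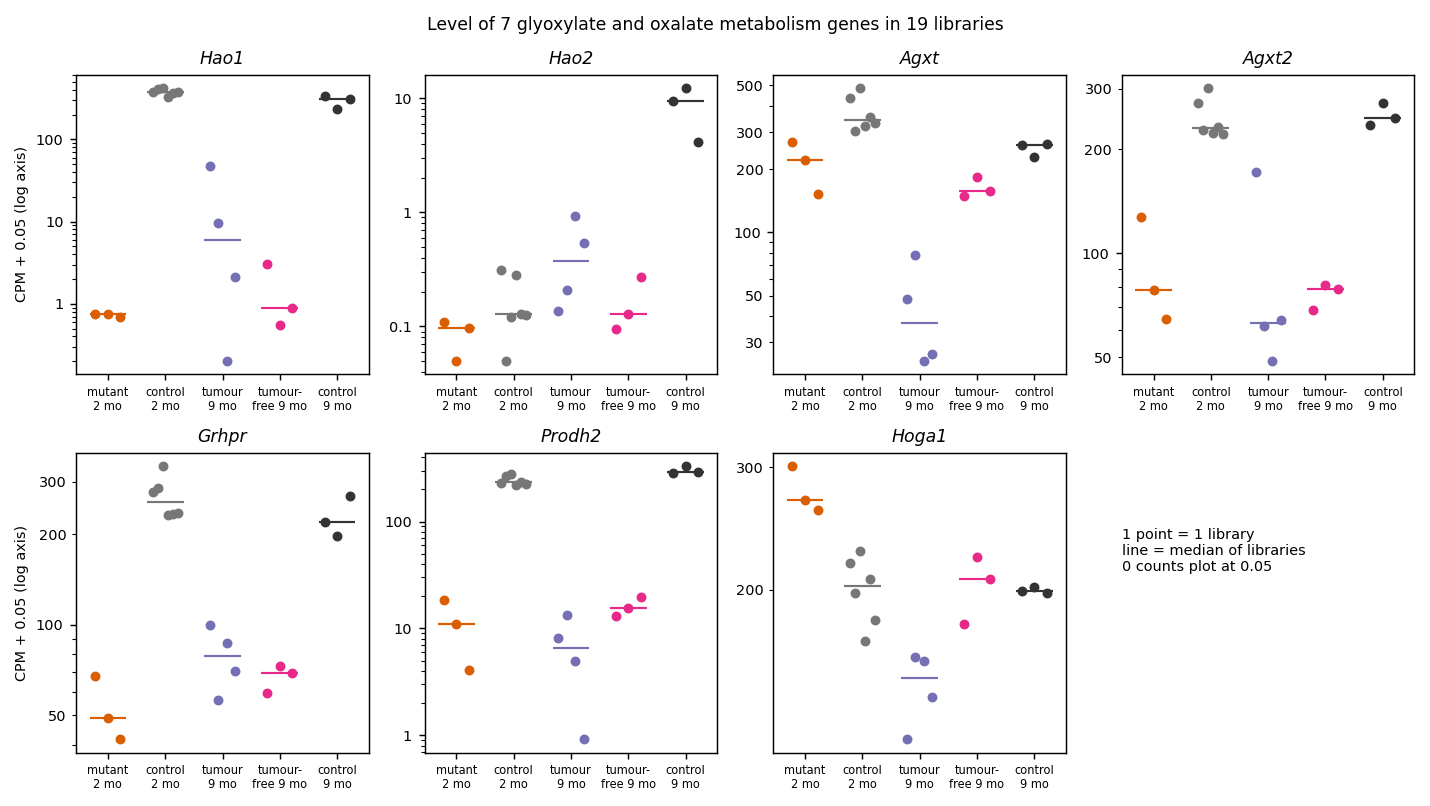
Level of the 7 genes in all 19 libraries, as CPM after TMM scaling plus 0.05 on a log axis, with 1 point per library and a line at the group median; n is 3 mutant and 6 control livers at 2 months, and 4 tumours, 3 tumour-free pieces and 3 control livers at 9 months. Hao1 lay between 0.648 and 0.708 CPM in 2-month mutants and between 327 and 418 CPM in their controls, and Hao2 was above 1 CPM in 9-month controls alone among the 5 groups.

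At 2 months after induction, the mutant livers had almost no glycolate oxidase transcript. Hao1 (ENSMUSG00000027261.2, chr2:134497361-134554368, minus strand, GRCm38) was 0.708, 0.693 and 0.648 CPM in the 3 mutants, and 327 CPM at the lowest, 376 CPM at the median and 418 CPM at the highest in the 6 controls. The 3 mutants were close to each other and none came near a control. The mutant mean was 0.181% of the control mean, a fitted log2 change of -9.09 ± 0.16, the 8th lowest of 13773 genes tested. These mutant values rest on 11 to 14 counts per library, so they are low but not absent. Here and below, ± beside a log2 change is the size of the change divided by the root of its F statistic. It is an approximate standard error, not that of the fit, and can be too small at low counts.

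Of the hydroxyproline enzymes, the first was low and the last was not. Prodh2 (ENSMUSG00000036892.12, chr7:30493622-30513402, plus strand) was 18.5, 10.96 and 4.02 CPM in the 2-month mutants, against 218, 233 and 279 CPM as lowest, median and highest control. All mutants lay far below all controls and spread over a wider relative range, with a log2 change of -4.44 ± 0.42, or -5.04 without mutant 1. Hoga1 (ENSMUSG00000025176.14, chr19:42045610-42070953, plus strand) was 301, 269 and 260 CPM in mutants, against 169, 202 and 227 CPM as lowest, median and highest control. Here every mutant lay above every control, by a log2 change of 0.48 ± 0.10. Both ends of the hydroxyproline route thus stood on opposite sides of control liver in the same animals.

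The enzymes that remove glyoxylate were lower by smaller factors. Grhpr (ENSMUSG00000035637.14, chr4:44981395-44990734, plus strand) was 67.7, 48.8 and 41.7 CPM in 2-month mutants, against 233, 256 and 337 CPM as lowest, median and highest control, a log2 change of -2.33 ± 0.18. Agxt (ENSMUSG00000026272.6, chr1:93135240-93145421, plus strand) was 268, 221 and 152 CPM in mutants, against 305, 341 and 485 CPM in the same order for controls, a log2 change of -0.79 ± 0.20. The groups did not overlap for either gene, as held in this direction for 19.1% of all genes tested. For Agxt the highest mutant was close to the lowest control. Agxt2 (ENSMUSG00000089678.8, chr15:10358532-10410153, plus strand) was 128, 78.1 and 64.7 CPM in mutants, against 222, 230 and 301 CPM in the same order for controls, a log2 change of -1.44 ± 0.20. It too had no overlap, with mutant 1 the highest of the 3 mutants for Agxt2, Grhpr, Agxt and Prodh2 alike.

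Hao2 (ENSMUSG00000027870.8, chr3:98874521-98893239, minus strand) was close to the limit of counting at 2 months. The 3 mutants held 1, 0 and 1 counts and the 6 controls between 0 and 4, which is 2 counts against 10 in all. The ratio of mutant to control at equal depth was 0.303, with a 95% counting interval from 0.0323 to 1.42, so no difference was detectable at this depth, and the gene did not pass the expression filter.

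Of the 6 genes tested at 2 months, 5 were past the threshold as lower, where 20.4% of all genes tested were, and 1 (Hoga1) as higher, where 22.3% of all genes were. The mutants lay below all controls for the same 5 genes, as they did for 19.1% of all genes tested, and above them for Hoga1, as for 19.3%. The median log2 change of the 6 was -1.89, beside 0.011 for all genes tested. Scaling by library size alone moved the median of all genes to 0.29 and left every one of these 6 genes on its side.

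**Figure D2:**
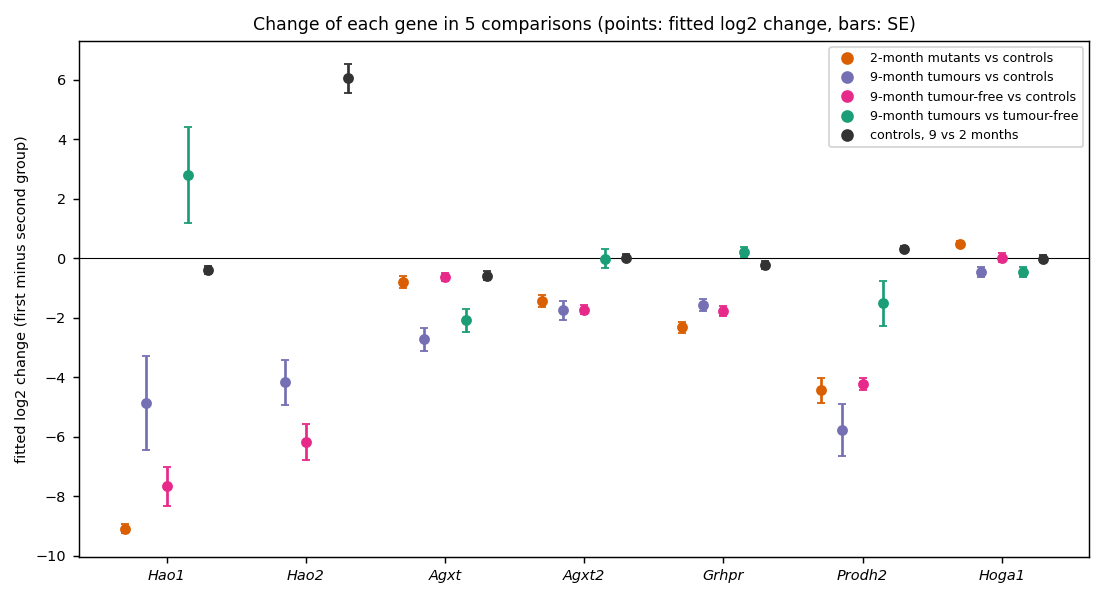
Fitted log2 change of each gene (points) in 5 comparisons, named first against second group. Bars are an approximate standard error, the size of the change divided by the root of its F statistic. Hao2 is missing where it did not pass the expression filter. Hao1, Prodh2, Grhpr, Agxt2 and Agxt lie below 0 in all 3 mutant against control comparisons, from -0.63 to -9.09, and Hao2 lies at 6.04 in 9-month against 2-month controls.

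At 9 months, tumour-free mutant tissue was compared with control liver of the same run. Hao1 was 2.98, 0.503 and 0.838 CPM in tumour-free tissue of mutants 1, 2 and 3, against 332, 231 and 308 CPM in controls, a log2 change of -7.67 ± 0.66, and -8.75 without mutant 1. Prodh2 was 13.0, 15.5 and 19.5 CPM in tumour-free tissue, against 288, 328 and 292 CPM in controls, a log2 change of -4.25 ± 0.20. For both genes each mutant piece was at least an order of magnitude under each control.

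Hao2 could be measured here because the older controls expressed it. It was 0.0439, 0.0774 and 0.2205 CPM in tumour-free tissue, from 8 counts in all, against 9.43, 12.2 and 4.11 CPM in controls, from 452 counts. The 3 controls differed widely among themselves, yet the lowest of them lay well above the highest tumour-free value. The log2 change was -6.19 ± 0.61, and -6.97 without mutant 3.

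Grhpr was 59.3, 73.2 and 69.4 CPM in tumour-free tissue, against 220, 198 and 269 CPM in controls, a log2 change of -1.77 ± 0.17. Agxt2 was 68.5, 81.0 and 78.8 CPM in tumour-free tissue, against 235, 272 and 247 CPM in controls, a log2 change of -1.73 ± 0.15. Agxt was 148, 183 and 157 CPM in tumour-free tissue, against 260, 228 and 262 CPM in controls, a log2 change of -0.63 ± 0.14. None of these 3 genes had overlapping groups, as held in this direction for 23.6% of all genes tested. Among the 3, Agxt again showed the mildest difference. Hoga1 was 178, 223 and 207 CPM in tumour-free tissue, against 199, 202 and 198 CPM in controls, with a log2 change of 0.02 ± 0.14 and overlapping groups.

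All 7 genes passed the expression filter in this comparison, and 6 were past the threshold as lower, where 16.8% of all genes tested were. None was past it as higher, where 18.1% of all genes were. Hao2, among the 6, passed the filter only through the controls, so it could be called only as lower. Those 6 genes had tumour-free tissue below all controls, which held for 23.6% of all genes tested, and none had it above, which held for 25.6%. The median log2 change of the 7 was -1.77, beside -0.0088 for all genes tested. Agxt left the count under 5 of 13 alternatives: without control 3, without tumour-free tissue 3, without the 9-month animals numbered 1, in 1 fit over all 5 groups and with scaling by library size alone (log2 change -0.19). That scaling moved the median of all genes to 0.42 and brought Hoga1 past the threshold as higher (0.46).

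The tumours, set against the same 9-month controls, held a more varied picture. Prodh2 was 8.10 and 13.3 CPM in tumours 1 and 2 of mutant 1, 4.95 CPM in the tumour of mutant 2 and 0.877 CPM in that of mutant 3, against the 288 to 328 CPM of controls. Its log2 change of -5.78 ± 0.89, with the tumours of mutant 1 summed, became -6.67 without mutant 1. Hao1 was 47.7 and 9.67 CPM in the tumours of mutant 1, 0.154 CPM in that of mutant 2 and 2.06 CPM in that of mutant 3, against 231 to 332 CPM in controls. The 4 tumours covered a very wide range for Hao1 and still all lay under the lowest control. With that spread the log2 change was -4.87 ± 1.57, which was not past the threshold. It was past it under 5 of 16 alternatives: without mutant 1 (-8.04), without the 9-month animals numbered 1 (-7.96), with tumour 1 of mutant 1 left out, a choice made after the values were seen (-6.21), with the replicate block (-6.80) and in 1 fit over all 5 groups (-4.83).

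Agxt was 48.0 and 77.9 CPM in the tumours of mutant 1, 24.5 CPM in that of mutant 2 and 26.4 CPM in that of mutant 3, against 228 to 262 CPM in controls. Every tumour was below the lowest of the controls, with a log2 change of -2.73 ± 0.40. Hao2 was 0.0871, 0.158, 0.883 and 0.482 CPM in the tumours of mutants 1, 1, 2 and 3, from 40 counts in all, against 4.11 to 12.2 CPM in controls. All tumours lay below all controls, with a log2 change of -4.18 ± 0.76, or -4.95 without mutant 2. Grhpr was 99.9, 56.2, 87.0 and 70.2 CPM in the same 4 tumours, against 198 to 269 CPM in controls, a log2 change of -1.57 ± 0.20 with no overlap.

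Agxt2 was 172 CPM in tumour 1 of mutant 1 but 61.5, 48.9 and 64.1 CPM in the other tumours, against 235 to 272 CPM in controls. The tumour with the highest Agxt2 was also the one with the highest Hao1 and Grhpr. The log2 change of Agxt2 was -1.75 ± 0.33, and with tumour 1 alone standing for mutant 1 it left the count. Hoga1 was 122, 160, 158 and 140 CPM in the 4 tumours, against 198 to 202 CPM in controls. No tumour reached a control, yet its log2 change of -0.47 ± 0.17 was not past the threshold, and was by DESeq2 and in 1 fit over all 5 groups.

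In tumours 5 of 7 genes were past the threshold as lower, where 11.3% of all genes tested were, and none as higher, where 13.8% of all genes were. Hao2, among the 5, passed the expression filter only through the controls, so it could be called only as lower. All 4 tumours lay below all controls for each of the 7 genes, as for 19.4% of all genes tested, and above them for none, as for 22.1%. The median log2 change of the 7 was -2.73, beside 0.015 for all genes tested, a median that scaling by library size alone moved to 0.48 with no change of side for any of the 7. The tumour and tumour-free comparisons share their controls, so their values stand side by side and not as separate evidence.

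Whether tumours differ from the tumour-free tissue around them was asked in the same 3 mice. Ratios were taken within each mouse, while the main fit had no term for the animal. Agxt was lower in each of the 4 tumours than in the tumour-free tissue of its own mouse, by 3.09-fold and 1.90-fold in the tumours of mutant 1, 7.46-fold in mutant 2 and 5.94-fold in mutant 3. The 4 tumours lay between 24.5 and 77.9 CPM and the tumour-free pieces between 148 and 183 CPM, without overlap, which in this direction held for 6.08% of all genes tested (5.9% with tumours higher). The fitted log2 change was -2.09 ± 0.40 (edgeR adjusted p = 0.224, unadjusted p = 0.00135), and with the animal as a block -2.24 (adjusted p = 0.335). It passed by DESeq2 (adjusted p = 5.43e-05), in 1 fit over all 5 groups (adjusted p = 0.0031) and without the tumours of mutant 1 (log2 change -2.69, adjusted p = 0.0209), with adjusted p between 5.43e-05 and 0.888 over all alternatives.

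Hoga1 was also lower in every tumour than in its own tumour-free tissue, by 1.11-fold to 1.48-fold, with a log2 change of -0.48 ± 0.17 (adjusted p = 0.424, unadjusted p = 0.024). Prodh2 was 22.2-fold lower in the tumour of mutant 3 and 3.12-fold lower in that of mutant 2, while tumour 2 of mutant 1 was level with its tumour-free tissue (ratio 1.02). Its log2 change was -1.52 ± 0.76 (adjusted p = 0.589), or -2.46 without the tumours of mutant 1 (adjusted p = 0.262). Hao1 moved in both directions, with tumour over tumour-free ratios of 16.0 and 3.24 in mutant 1, 0.305 in mutant 2 and 2.46 in mutant 3. Its log2 change of 2.80 ± 1.63 (adjusted p = 0.643) turned to -0.40 without the tumours of mutant 1. Grhpr had ratios of 0.948 to 1.69 and Agxt2 of 0.604 to 2.52, with no common direction. Their log2 changes were 0.21 ± 0.15 (adjusted p = 0.745) and -0.01 ± 0.31 (adjusted p = 0.996). With the animal as a block in edgeR, the log2 changes were -0.47 for Hoga1 (adjusted p = 0.457), -1.96 for Prodh2 (0.567) and 1.40 for Hao1 (0.716). For Grhpr and Agxt2 they were 0.21 (0.711) and -0.11 (0.939).

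No member of the 6 tested was past the threshold between tumour and tumour-free tissue. By edgeR 2 had an unadjusted p under 0.05, as had 1454 of all 14566 genes tested. By DESeq2 1 member was past the threshold, and with the animal as a block none was. Of all genes tested, 0% were past it as lower and 0.0137% as higher, that is 2 genes, Apln and Esm1 (1 gene with the animal as a block, and 442 by DESeq2). Hao2 did not pass the expression filter here. It was higher in each tumour than in the tumour-free tissue of its mouse, with ratios of 1.99 and 3.61 in mutant 1, 11.4 in mutant 2 and 2.19 in mutant 3, from 40 counts in tumours against 8 in tumour-free tissue. Where an alternative let it be tested its log2 change was 1.67 to 2.89, with adjusted p between 0.204 and 0.988.

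**Figure D3:**
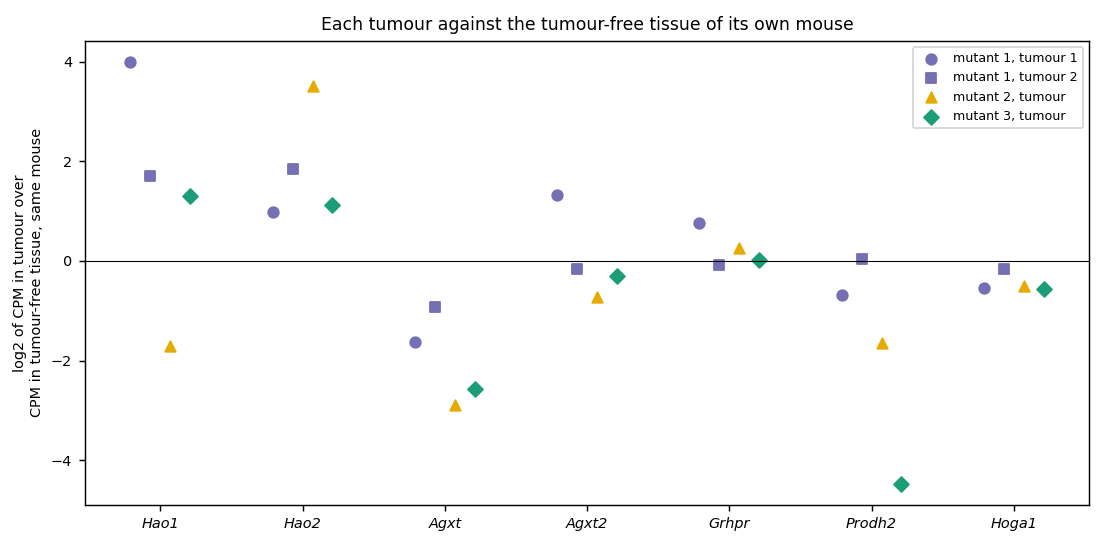
Log2 of the CPM in each tumour over the CPM in tumour-free tissue of the same mouse, for 7 genes and 4 tumours (symbols); 0 means an equal level, and the Hao2 points rest on 1 to 5 counts per tumour-free library. Agxt and Hoga1 lie below 0 and Hao2 above 0 for all 4 tumours, while Hao1 runs from a ratio of 0.305 in mutant 2 to 16.0 in tumour 1 of mutant 1.

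Between the times, control liver changed in 2 of the 7 genes. Hao2 rose, with 9.43, 12.2 and 4.11 CPM in 9-month controls against 0 CPM at the lowest, 0.077 CPM at the median and 0.262 CPM at the highest in 2-month controls. The groups were far apart, at 452 counts against 10, with a log2 change of 6.04 ± 0.48 (edgeR adjusted p = 2.47e-05), rank 13529 of 13545 genes tested when counted from the lowest. Hao2 passed the expression filter here only through the 9-month controls, so it could be called only as higher in them. Its p-value and rank are a description and no support. Of 5 markers of kidney tubule, an organ where Hao2 is known in rodents, Kap and Slc34a1 were at 0 in all 9-month controls. There Umod reached 0.116 CPM and Lrp2 0.845 CPM, and Slc5a2 lay between 0.0578 and 0.17 CPM. In 2-month controls Umod reached 0.158 CPM, Lrp2 2.25 CPM and Slc5a2 0.0789 CPM. Any part of kidney tissue in the Hao2 level was not tested.

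Agxt fell, with 260, 228 and 262 CPM in 9-month controls against 305, 341 and 485 CPM as lowest, median and highest 2-month control. Its log2 change was -0.58 ± 0.15 (adjusted p = 0.0314), and over the alternatives the adjusted p lay between 0.00429 and 0.194. It missed the threshold under 5 of 16: without 2-month control 1 (0.0574), without 9-month control 2 (0.106), without 9-month control 3 (0.0802), with the replicate block (0.076) and in 1 fit over all 5 groups (0.194). The log2 changes of the other 5 genes were -0.40 ± 0.13 for Hao1 (adjusted p = 0.0659), 0.30 ± 0.11 for Prodh2 (0.0865), -0.23 ± 0.14 for Grhpr (0.308), 0.02 ± 0.12 for Agxt2 (0.945) and -0.02 ± 0.11 for Hoga1 (0.939). By DESeq2 Hao1 (adjusted p = 0.0277) and Prodh2 (0.0424) also passed, and by edgeR Hao1 passed without 9-month control 1 (0.0381) and with library size alone (0.0368). Of all genes tested, 7.29% were past the threshold as higher and 4.64% as lower in 9-month controls. Here time and sequencing run cannot be told apart.

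For the tumour-free effect at 9 months minus the mutant effect at 2 months, no member was past the threshold, where 1.05% of all genes tested were past it as lower and 0.462% as higher. By edgeR 4 of the 7 had an unadjusted p under 0.05, as had 1882 of all 14707 genes tested. By DESeq2 1 member, Hao2, passed (adjusted p = 0.0365), as did 534 of all genes. The differences were -4.62 ± 1.85 log2 units for Hao2 (edgeR adjusted p = 0.289), 1.44 ± 0.57 for Hao1 (0.283), 0.57 ± 0.25 for Grhpr (0.336) and -0.45 ± 0.17 for Hoga1 (0.244). Hao1 fell back to a difference of 0.38 without tumour-free tissue 1. For Hao2, 2-month controls held 10 counts and 9-month controls 452, against 2 in 2-month mutants and 8 in tumour-free tissue. It passed the expression filter only through the 9-month controls.

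Genes next to the 7 in metabolism were taken from 4 lists written by function and not by how they moved, though with earlier results of these data known. Genes named from them mostly have the smallest adjusted p, so their p-values are a description and no independent support. Their counts stand beside the shares of all genes past the threshold, which were 20.4% lower and 22.3% higher at 2 months, 11.3% and 13.8% in tumours, 16.8% and 18.1% in tumour-free tissue, and 4.64% and 7.29% in 9-month against 2-month controls. Of 21 glyoxylate and one-carbon neighbours 20 were tested, and at 2 months 11 fell and 2 rose in mutants, with a median log2 change of -0.36 beside 0.011 for all genes. Amt, a subunit of the glycine cleavage system, fell by 1.37 ± 0.26 on the log2 scale (edgeR adjusted p = 0.00168), Hyi, hydroxypyruvate isomerase, by 1.04 ± 0.20 (0.00175) and Shmt1, which interconverts serine and glycine, by 1.02 ± 0.20 (0.0019). Dmgdh, dimethylglycine dehydrogenase, rose by 0.58 ± 0.14 (0.00657) and Ldhd, a D-lactate dehydrogenase, by 0.44 ± 0.14 (0.0234). The falls numbered 4 to 11 and the rises 0 to 6 over the alternatives, with 6 falls without mutant 3, 7 with the replicate block and 4 with library size alone, where 6 rose. In tumours 8 of 20 fell and none rose (median -0.65), with the smallest adjusted p for Shmt1 at -1.48 ± 0.20 (0.00332), Amt at -1.39 ± 0.23 (0.00667) and Sardh, sarcosine dehydrogenase, at -1.43 ± 0.26 (0.00953). In tumour-free tissue 10 fell and 1 rose (median -0.41): Amt changed by -1.70 ± 0.14 (7.53e-05), while Slc26a6, an anion exchanger that carries oxalate, rose by 1.15 ± 0.25 (0.00838). The 9-month counts of falls moved with single samples, to between 2 and 5 in tumours without mutant 1, any 1 control or the animals numbered 1, and to 5 or 6 in tumour-free tissue without control 3, tumour-free tissue 2 or tumour-free tissue 3. With library size alone there were 4 falls and 2 rises in tumours and 3 falls and 4 rises in tumour-free tissue, and DESeq2 and the fit over all 5 groups each gave 13 falls and 2 rises in tumours.

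Ldha, the muscle-type lactate dehydrogenase subunit that can make oxalate from glyoxylate, is in this list and is named after its values were seen. It averaged 324 ± 48.3 CPM in 2-month mutants and 460 ± 49.6 CPM in 2-month controls (SD, n = 3 and 6), a log2 change of -0.50 ± 0.12 (edgeR adjusted p = 0.00698). At 9 months it averaged 336 ± 46.3 CPM in tumours and 358 ± 41.5 CPM in tumour-free tissue, against 593 ± 66.2 CPM in controls (SD, n = 3 each), with log2 changes of -0.84 ± 0.22 (0.0322) and -0.73 ± 0.16 (0.00897). These calls were lost under 2 of 15 alternatives at 2 months, 7 of 16 in tumours and 1 of 13 in tumour-free tissue.

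Among proline and hydroxyproline genes, Prodh fell in all 3 mutant tissues, while Aldh18a1 and Pycr1 rose at 9 months. Prodh, the proline counterpart of Prodh2, changed by -1.24 ± 0.18 in 2-month mutants (edgeR adjusted p = 0.000209), by -3.82 ± 0.64 in tumours (0.00822) and by -2.06 ± 0.24 in tumour-free tissue (0.000374). Aldh18a1, which starts proline synthesis from glutamate, rose by 3.90 ± 0.25 in tumours (0.000402) and 2.41 ± 0.27 in tumour-free tissue (0.000317). Its mean was 4.06 CPM in tumour-free tissue and 0.758 CPM in 9-month controls. At 2 months it was 3.70 CPM in mutants and 2.34 CPM in controls. Pycr1, which completes proline synthesis, rose by 2.65 ± 0.60 in tumours (0.0194) and 2.05 ± 0.48 in tumour-free tissue (0.0122). The 9-month controls held 15 Pycr1 counts in all, so it passed the expression filter there only through mutant tissue. At 2 months Pycr1 was not tested, with 0.59 to 1.2 CPM in mutants and 0.141 to 0.492 CPM in controls. Its relative Pycrl fell by 1.03 ± 0.15 in 2-month mutants (0.000222). P4hb, which serves prolyl hydroxylase and disulfide exchange, rose by 1.16 ± 0.13 at 2 months (3.38e-05). In all, 2 of 10 tested rose and 3 fell at 2 months (median -0.15), 3 of 11 rose and 3 fell in tumours (median -0.44), and 3 of 11 rose and 4 fell in tumour-free tissue (median 0.24). The tumour count dropped to 1 rise and 1 fall without 9-month control 3 or without the animals numbered 1, and to 1 rise and 3 falls without 9-month control 1.

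HAO1, HAO2 and, in many mammals, AGXT act in peroxisomes, and 26 peroxisomal genes were examined. At 2 months 14 fell and 1 rose (median -0.36), in tumours 15 fell and none rose (median -0.96), and in tumour-free tissue 19 fell and none rose (median -0.75). Pex11a, linked to peroxisome proliferation, changed by -2.05 ± 0.22 in 2-month mutants (edgeR adjusted p = 2.92e-05), -2.94 ± 0.33 in tumours (0.00177) and -3.37 ± 0.22 in tumour-free tissue (2.5e-05). Abcd3, a peroxisomal membrane transporter, fell by 0.98 ± 0.10 at 2 months (2.4e-05), and Pex5, the import receptor, was the 1 gene that rose, by 0.47 ± 0.10 (0.00238). Library size alone gave 8, 13 and 10 falls with 3, 0 and 2 rises in these comparisons in turn, and the tumour count was 8 without 9-month control 3 and 6 without the animals numbered 1. The replicate block gave 9 falls at 2 months. In the change with time, Pex11a differed by -1.31 ± 0.29 (0.0358) and Hsd17b4, a beta-oxidation enzyme, by -0.82 ± 0.19 (0.0424), but the call was lost under 11 of 22 alternatives for Pex11a and 18 of 22 for Hsd17b4. P4hb was the 1 gene of the other 3 lists past the threshold there, at -0.89 ± 0.20 (0.0314), and it was lost under 11 of 22. Without 2-month mutant 1, 2-month mutant 2, tumour-free tissue 2 or tumour-free tissue 3, with the replicate block or in 1 fit over all 5 groups, no gene of the peroxisome or proline list passed there. In 9-month against 2-month controls 6 peroxisomal genes rose, with Pex11a at 1.33 ± 0.16 (0.00045), while 2 did without 9-month control 3, with no filter or in the fit over all 5 groups, and 1 with the replicate block. The other 3 lists had 2 rises and 1 fall, 1 rise and 1 fall, and 1 rise in that comparison, among them Pgp, phosphoglycolate phosphatase, at 0.67 ± 0.12 (0.0065), Prodh at 0.64 ± 0.10 (0.00314) and Aldh18a1 at -1.62 ± 0.31 (0.00748).

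The fourth list held 13 genes of aminotransferases, beta-amino acids and related steps, chosen as the surroundings of Agxt2. At 2 months 8 fell and 1 rose (median -0.69), in tumours 8 fell (median -1.07) and in tumour-free tissue 10 fell (median -1.24), with no rise at 9 months. Dpys, dihydropyrimidinase, changed by -1.59 ± 0.17 in 2-month mutants (edgeR adjusted p = 2.65e-05), -2.57 ± 0.31 in tumours (0.00238) and -2.30 ± 0.27 in tumour-free tissue (0.000399). Kyat1, a kynurenine aminotransferase, fell by 2.19 ± 0.28 at 2 months (0.000132), and Hibadh, an enzyme of valine breakdown, changed by -2.01 ± 0.31 in tumours (0.005). Gpt2, a mitochondrial alanine aminotransferase, rose by 1.29 ± 0.12 at 2 months (7.4e-06). The tumour count was 5 without 9-month control 1 or 3 and 4 without the animals numbered 1, and the tumour-free count 6 without tumour-free tissue 2. Between tumour and tumour-free tissue no gene of the 4 lists passed. By edgeR 3 of 20, 3 of 11, 2 of 26 and 2 of 13, in the order given, had an unadjusted p under 0.05. Of all 14566 genes tested, 1454 had one. DESeq2 passed 2 proline genes and 1 of the aminotransferase list, the fit over all 5 groups 2 proline genes and 1 peroxisomal gene, and edgeR with no filter or without the tumours of mutant 1 a single proline gene each.

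**Figure D4:**
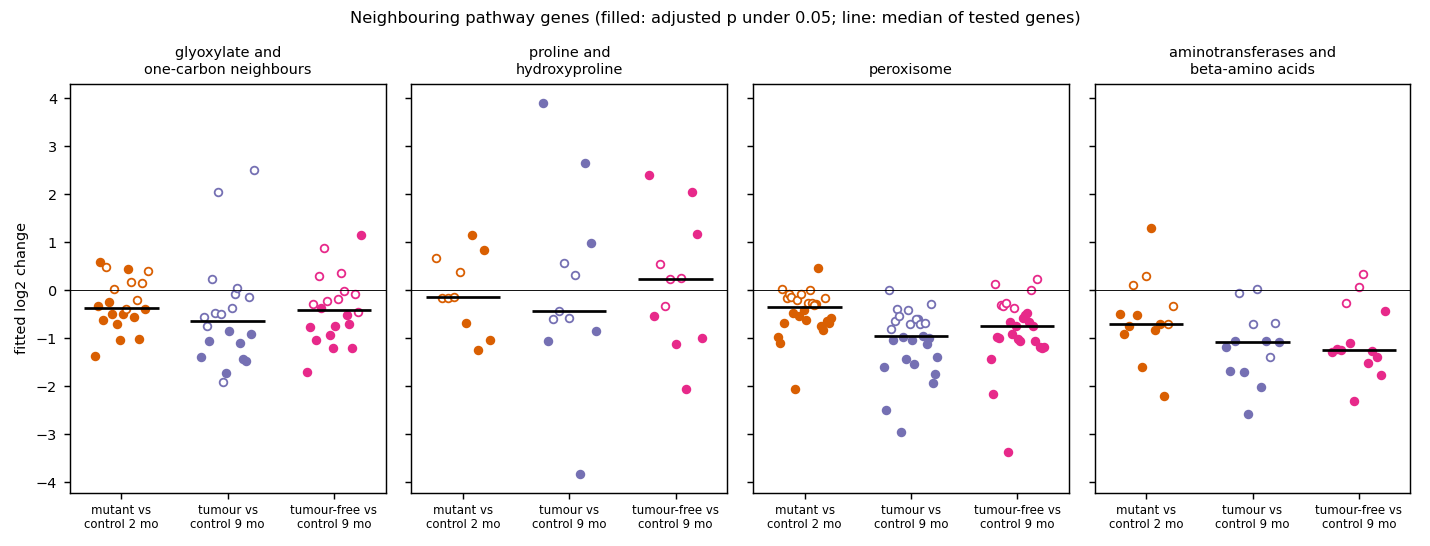
Fitted log2 change of each tested gene (points) of the 4 neighbouring lists in 3 mutant against control comparisons, filled where the adjusted p was under 0.05, with a line at the median of the list. The peroxisome medians lie at -0.36, -0.96 and -0.75, and the proline panel holds Aldh18a1 at 3.90 and Prodh at -3.82 in tumours.

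The genes whose levels ran most like each member were found among 12220 genes over the 18 animal and tissue samples, as the smallest root mean square difference of centred log2 CPM. Hoga1 had the closest neighbours, Sec16b at 0.16, Gsdmd at 0.179 and Urah at 0.183 log2 units, and it also varied least itself (SD 0.30). Agxt2 was nearest to Ggact at 0.225, Mettl26 at 0.278 and Nipsnap1 at 0.28, and Grhpr to Asgr2 at 0.271, Gm36028 at 0.291 and Nlrp6 at 0.302. Agxt was nearest to Gulo at 0.305, Pon1 at 0.354 and Cyp27a1 at 0.398. Prodh2 was nearest to Cyp2c54 at 0.684 and Nxpe2 at 0.692. Hao1, with an SD of 4.34 log2 units, came no nearer than 1.01 to any gene, with Fabp1, Mup3 at 1.04 and Cyp8b1 at 1.199 first. For Hao2 the first were Pnldc1 at 1.03, Gprc5b at 1.03 and Lgals1 at 1.24. No member was among the 3 nearest genes of another member.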

How the data were processed

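RNA was poly(A)-selected and sequenced from strand-specific libraries, per the labels' protocols. The authors deposited whole-number counts for each gene in every library, used here as they stand. Per the submitters' processing notes, the tools were RSEM, STAR 2.6.1a, DESeq2 1.22.2 and bedtools 2.27.1, with build GRCm38. What each tool did, and which annotation release served, is not given in the sources used here. If RSEM made the counts, they are rounded estimates. The 2 tumours of mutant 1 were summed, so 19 libraries stand for 15 animals. Only the groups compared entered each fit, made in edgeR 4.0.16 (expression filter, TMM scaling, robust quasi-likelihood test), and p-values were adjusted by Benjamini-Hochberg over all genes tested, with 0.05 as threshold. DESeq2 1.42.0 was an alternative. In simulated data with as many planted rises as falls, the median fitted log2 change was close to the planted one. The simulation did not test the choice of scaling. Coordinates and exon lengths come from GENCODE M21, which holds 54673 of the 55421 gene IDs with the same version, and promoters from RefSeq. Agxt2 and Hoga1 each share exonic bases with another gene on their strand, Gm21973 (0 counts over 19 libraries) and 4933411K16Rik (88 counts). Intervals cover counting error only.

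The members, lists and tests were chosen with earlier results of these data known. Named are the 7 members, of each list up to 3 genes per direction and comparison with the smallest adjusted p, and the 3 genes nearest in pattern to each member. A few genes that this rule names are not reported here. Tumour and tumour-free tissue come from the same 3 animals and are paired by them, per the labels. Their deviations from the group means correlated at 0.0334 to 0.307 within an animal and at -0.246 to 0.041 between animals. These ranges overlap, and deviations within a group cancel out, so they do not test the pairing. Tumour-free tissue and same-numbered controls, which are different animals, reached 0.309. Same-numbered animals elsewhere share only a number.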

Additional observations from a re-analysis of the deposited data

How the results depend on the processing

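The mutant against control changes of Hao1, Hao2, Prodh2, Grhpr, Agxt and Agxt2 kept their sign, where tested, under every alternative tried. The replicate block (number as a term in the model) took the genes past the threshold in 2-month mutants to 3290, against 5883 without it, and Hoga1 there below the threshold; same-numbered mutants and controls correlated at -0.222 to 0.239, so these numbers were not taken as pairs. Tumours against controls gave 3593 genes, 5482 with library size alone, 6612 in 1 fit over all 5 groups, 1743 without the 9-month animals numbered 1, and 1419 to 3566 with 1 sample left out. Tumour against tumour-free tissue gave 2 genes, 442 by DESeq2, 47 with no filter, 380 in the joint fit, 1 with the replicate block, 0 without the animals numbered 1, 1 with tumour 1 alone for mutant 1, and 0 to 63 with 1 sample left out; members past the threshold were 1 by DESeq2, 1 in the joint fit and 0 to 1 with 1 sample left out. Agxt2 turned positive there with library size alone (0.00578), no filter (0.0024), the joint fit (0.0031), 4 separate tumours (0.19) and tumour 1 alone (0.32), and ranged from -0.44 to 0.23 with 1 sample left out; Hao1 ranged from -0.40 to 3.90. Controls over time gave 1616 genes, 1056 in the joint fit, 384 with the replicate block and 797 to 1899 with 1 sample left out, and 2 members, 4 by DESeq2, 1 in the joint fit, 1 with the block and 1 to 3 with 1 sample left out. Agxt2 was -0.089 with the block and -0.048 to 0.076 with 1 sample left out, and Hoga1 -0.054 to 0.019. The change with time gave 223 genes, 534 by DESeq2, 54 in the joint fit, 54 with the block and 110 to 293 with 1 sample left out; 1 member passed by DESeq2, and Agxt2 ranged from -0.43 to 0.10 and Prodh2 from -0.17 to 0.82. Hoga1 in tumour-free tissue ranged from -0.034 to 0.12 with 1 sample left out and was 0.46 with library size alone. Unless given otherwise, the cause was not tested. Splits between higher and lower genes with library size alone were 5445 and 1562 in 2-month mutants, 4664 and 818 in tumours and 5706 and 1178 in tumour-free tissue, against 3067 and 2816, 1971 and 1622, and 2599 and 2410 with TMM. Low counts limit Hao2 and the mutant values of Hao1, and 3 animals per mutant group limit the rest.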
